A study of Mus musculus with 14 samples.

Results

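The genes of the mouse major histocompatibility complex (MHC, called H2 in the mouse) were followed in the olfactory epithelium at P5. The members were all gene symbols that begin with H2- in both normalized count tables, together with B2m, Tap1, Tap2 and Cd74, which gave 49 of the 51211 symbols listed. They comprised 2 classical class I heavy chains (H2-K1 and H2-D1), 20 non-classical class I genes of the Q, T and M regions with their pseudogenes, 3 class I partners (B2m, Tap1 and Tap2), 13 class II genes including Cd74, and 10 H2-M genes of vomeronasal neurons. The remaining symbol, H2-Ke6, names a gene in the complex that encodes no MHC chain.

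RNA was sequenced from whole olfactory epithelia of 14 individual mice in 2 experiments. In the Kir2.1 experiment, 3 mice carrying OMP-IRES-tTA and tetO-Kir2.1-IRES-tauLacZ were compared with 3 control littermates that carried OMP-IRES-tTA alone, in the heterozygous state, so both groups had the tTA allele at the Omp locus. In those mice the tetO transgene, which encodes the potassium channel Kcnj2 (Kir2.1), is driven from the Omp locus in mature olfactory sensory neurons (OSNs). The paper states that silencing by Kir2.1 reaches vomeronasal neurons too. The sample records call the mice with the tetO transgene Kir2.1-off, although they were taken at P5. In the PEA experiment, 4 wild type mice exposed to the odor 2-phenylethylamine (PEA) from P0 to P5 were compared with 4 wild type mice that had no PEA exposure. The sample records give C57BL/6 as the strain of every mouse, while the methods name CD-1 pups, an outbred stock, for the exposure experiments. No source used here gives the H2 haplotype, the sex, the litter or the cage of a mouse.

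Class I molecules are built from a heavy chain and beta-2 microglobulin (B2m), and display peptides from inside the cell to CD8 T cells. The peptides reach them through the transporter formed by Tap1 and Tap2. Class II molecules are built from A and E chain pairs, are made mainly by antigen-presenting cells, and are loaded with the help of Cd74 (the invariant chain) and the H2-DM proteins. The H2-M10, H2-M1, H2-M9 and H2-M11 genes are known as genes of basal vomeronasal neurons, in which they are expressed with V2R receptors. Class I genes are among the known targets of interferons and of the transactivator Nlrc5, and class II genes of the transactivator Ciita. Many H2 genes differ in sequence, and some in presence, between inbred strains. The b haplotype of C57BL/6 is known to make no H2-Ea RNA.

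The transgene was checked first. Kcnj2 was at 986, 1074 and 1274 normalized counts in the control mice and at 17926, 18530 and 24193 in the Kir2.1 mice (adjusted p = 0.000157, limma). Omp was at 31853 to 36226 in the controls and at 21062 to 23516 in the Kir2.1 mice (adjusted p = 0.0466, limma). Markers fit the labelled tissue, since 8 OSN genes summed to 90613 or more and 4 sustentacular cell genes to 129586 or more in every mouse of the Kir2.1 experiment, and to 29991 and 34317 or more in the PEA experiment. A normalized count is a gene's estimated read number divided by the size factor of its library. Levels are not compared between the experiments, whose libraries were made and normalized separately.

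All 49 members were found in the gene annotation of GRCm38, and 47 of them lie on chromosome 17. B2m is on chromosome 2 (chr2:122147686-122153083, + strand), and Cd74 is outside the complex too. H2-K1 (chr17:33996017-34000347, - strand) and H2-D1 (chr17:35262730-35267499, + strand) flank the class II genes, among which Tap1 (chr17:34187553-34197225) and Tap2 (chr17:34203527-34216321) also lie. H2-T23 (chr17:36029773-36032855), H2-T22 (chr17:36037128-36042747) and H2-T10 (chr17:36115876-36121465) are on the - strand further along. Several members are annotated as pseudogenes, and H2-Ea (chr17:34341959-34344645), H2-T10, H2-Bl and H2-Q5 as polymorphic pseudogenes, which are disrupted in the reference strain and intact in others.

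Promoter sequence from RefSeq (GRCm38.p6, 250 bases before to 50 after a start) was found for 34 member genes. The interferon-stimulated response element was searched on both strands as GAAANNGAAA (reverse TTTCNNTTTC), the letters found in the H2-T22 promoter with the middle pair left free. These letters were in 3.44% of the 32851 promoters in the table and in those of 3 member genes, B2m, H2-T22 and H2-T23. Other forms of the element were not searched, so promoters without these letters are not shown to lack it. The kappa B site of class I promoters, searched on both strands as GGGGATTCCC (reverse GGGAATCCCC), the letters found in the H2-D1 promoter, was in 0.107% of all promoters and in those of 4 member genes, H2-K1, H2-D1, H2-Q6 and H2-Q7. Promoters of the class I genes with the largest values in the Kir2.1 mice, which were chosen with those values known, are printed 5′ to 3′ on the strand of the gene. Capitals mark the response element in B2m (chr2:122147437-122147736, + strand), H2-T22 (chr17:36042693-36042992, - strand) and H2-T23 (chr17:36032652-36032951, - strand), and the kappa B letters in H2-K1 (chr17:34000284-34000583, - strand, 1 of 2 listed starts) and H2-D1 (chr17:35262844-35263143, + strand).
B2m: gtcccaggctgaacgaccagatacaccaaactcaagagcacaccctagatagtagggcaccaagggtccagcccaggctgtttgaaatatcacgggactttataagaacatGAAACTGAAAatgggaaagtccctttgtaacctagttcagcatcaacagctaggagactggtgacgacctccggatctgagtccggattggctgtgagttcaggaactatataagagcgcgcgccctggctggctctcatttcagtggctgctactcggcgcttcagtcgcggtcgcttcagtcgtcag
H2-T22: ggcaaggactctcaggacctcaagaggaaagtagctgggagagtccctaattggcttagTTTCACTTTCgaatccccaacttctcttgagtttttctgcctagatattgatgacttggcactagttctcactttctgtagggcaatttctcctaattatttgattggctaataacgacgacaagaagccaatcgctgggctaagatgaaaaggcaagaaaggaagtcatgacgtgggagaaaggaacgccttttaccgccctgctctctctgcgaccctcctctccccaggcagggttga
H2-T23: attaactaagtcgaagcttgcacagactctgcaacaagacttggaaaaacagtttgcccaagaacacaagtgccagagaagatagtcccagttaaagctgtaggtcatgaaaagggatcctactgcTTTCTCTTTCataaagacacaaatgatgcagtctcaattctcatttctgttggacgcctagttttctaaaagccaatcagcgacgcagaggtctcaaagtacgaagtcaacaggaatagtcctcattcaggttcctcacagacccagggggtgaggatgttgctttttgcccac
H2-K1: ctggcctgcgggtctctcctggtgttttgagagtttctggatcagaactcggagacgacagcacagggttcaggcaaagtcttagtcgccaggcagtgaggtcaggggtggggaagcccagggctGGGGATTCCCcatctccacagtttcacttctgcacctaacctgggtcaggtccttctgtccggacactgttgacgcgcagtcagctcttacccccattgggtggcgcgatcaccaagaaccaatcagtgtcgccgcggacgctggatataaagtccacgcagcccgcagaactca
H2-D1: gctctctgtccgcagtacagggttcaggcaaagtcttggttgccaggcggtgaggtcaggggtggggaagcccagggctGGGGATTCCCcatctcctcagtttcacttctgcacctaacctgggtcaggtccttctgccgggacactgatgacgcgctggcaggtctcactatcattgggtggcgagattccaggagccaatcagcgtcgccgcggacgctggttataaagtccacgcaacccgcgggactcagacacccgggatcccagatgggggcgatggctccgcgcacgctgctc
The first capital is at position -139 from the start in B2m, -191 in H2-T22, -124 in H2-T23, -125 in H2-K1 and -171 in H2-D1. A match of letters is a description of these windows and was not tested for binding. The matches in H2-T22 and H2-D1 were given in advance, since the letters were taken from these promoters.

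Near-identical members limit what short reads can tell apart. Of all 40-base windows in the exons of H2-T22 and H2-T10, the read length of the Kir2.1 libraries, 57.4% and 58.0% were found in no other gene, and 39.1% of the H2-T22 windows were shared with H2-T10. The unshared share was 52.6% for H2-Q5, 59.6% for H2-Q6, 81.0% for H2-D1 and 85.2% for H2-K1, and 100% for B2m and H2-Ea. At 150 bases, the read length of the PEA libraries, all members but H2-Ke6 had 94.0% or more of their windows to themselves. H2-Ke6 overlaps other annotated genes and had 45.5%. At 40 bases, the unshared share was 69.8% for H2-DMb2, 73.2% for H2-DMb1, 95.5% for H2-T24 and 26.9% for H2-Ke6. In the Kir2.1 experiment, values of members with a low share are therefore less certain than those of members with a high one. These windows come from the reference strain, and reads of another haplotype may be assigned in other ways.

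Of the 49 members, 29 passed the filter of a mean of 10 normalized counts in the Kir2.1 experiment and 25 in the PEA experiment, 23 of them in both. The 18 members that passed in neither were mostly vomeronasal H2-M genes and pseudogenes. At 0 in every mouse were 4 members in the Kir2.1 experiment (H2-M10.5-ps1, H2-Pa, H2-Pb and H2-Q3) and 6 in the PEA experiment (H2-M11 and H2-M6-ps in addition). The other untested members were above 0 in at least 1 mouse but low, 16 in the Kir2.1 experiment and 18 in the PEA experiment. Per kilobase of exon, B2m was the most abundant member in the control mice of both experiments, at 2904 normalized counts per kb in the Kir2.1 experiment and 1101 in the PEA experiment. It was followed by H2-D1 (1239 and 243 per kb), with H2-K1 at 1222 per kb in the Kir2.1 controls and 103 in the PEA controls. Cd74, the most abundant class II member per kilobase in the Kir2.1 controls, stood at 230 per kb there and at 42.6 in the PEA controls, where H2-DMb2 was at 51.8.

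No member passed the test in the Kir2.1 experiment. The comparison asks how silencing OSNs by Kir2.1 bears on RNA levels of the epithelium at P5. Of 19807 genes tested with limma on log2(normalized count + 1), 70 had an adjusted p under 0.05, which is 0.353%, and 0 of the 29 members did. Genes with an adjusted p under 0.05 that were higher with Kir2.1 made up 0.0757% of all genes, and those that were lower 0.278%. The smallest adjusted p among members was 0.271, that of H2-DMb2. An unadjusted p under 0.05 was found for 9 members, beside 11.1% of all genes, of which 7 were higher in the Kir2.1 mice, beside 4.93% of all genes, and 2 were lower, beside 6.2%. The groups of 2 members did not overlap with the Kir2.1 mice higher (Tap2 and H2-T23), beside 7.26% of all genes, and those of 2 with the Kir2.1 mice lower (H2-DMb2 and H2-M10.2), beside 9.04%. H2-DMb2 and H2-M10.2 were also the 2 lower members at an unadjusted p under 0.05. H2-M10.2, with means of 15.7 in the controls and 5.34 in the Kir2.1 mice, passed the filter only through the controls. When 1 mouse was left out, the 9 became 1 (without Kir2.1 mouse 3), 2 (without control mouse 2), 3 (without Kir2.1 mouse 1), 6 (without control mouse 3), 7 (without control mouse 1) or 12 (without Kir2.1 mouse 2), and with no trend 5. The 7 were B2m, Tap2, H2-K1, H2-D1, H2-Q4, H2-T22 and H2-T23, all of them class I genes or partners. The log2 fold change (log2FC) was above 0 for 18 of the 29 members, beside 51.2% of all genes, and its median was 0.16 over the members and 0.01 over all genes tested.

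The classical class I genes were high in Kir2.1 mice 1 and 3. H2-K1 had 4947, 2562 and 3264 normalized counts in control mice 1 to 3, and 8528, 4065 and 7763 in Kir2.1 mice 1 to 3. The value of Kir2.1 mouse 2 lay within the range of the controls and the other two lay above it. The log2FC was 0.90 ± 0.33 (SE, adjusted p = 0.371, limma). H2-D1 had 4125, 2178 and 3287 normalized counts in the controls and 6964, 3250 and 7786 in the Kir2.1 mice. Its groups overlapped in the same way, again through Kir2.1 mouse 2, with a log2FC of 0.86 ± 0.36 (SE, adjusted p = 0.440).

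Their partners were distributed alike. B2m, the light chain, had 3102, 1885 and 2506 normalized counts in the controls and 5002, 2855 and 5707 in the Kir2.1 mice (log2FC 0.82 ± 0.28 SE, adjusted p = 0.335). Kir2.1 mouse 2 fell below control mouse 1, and Kir2.1 mice 1 and 3 were above all controls. Tap2 had 455, 325 and 482 in the controls and 606, 535 and 841 in the Kir2.1 mice. Its groups did not overlap, and its log2FC was 0.64 ± 0.21 (SE, adjusted p = 0.321). Tap1, the other transporter chain, had 625, 353 and 614 in the controls and 698, 412 and 1352 in the Kir2.1 mice, which overlapped (adjusted p = 0.748).

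Among the non-classical genes, H2-T23 encodes Qa-1, a ligand of NK cell receptors. It had 664, 586 and 699 normalized counts in the controls and 1834, 705 and 1999 in the Kir2.1 mice. The groups did not overlap, although Kir2.1 mouse 2 exceeded the highest control by a few counts. The log2FC was 1.08 ± 0.37 (SE, adjusted p = 0.335). H2-T22, a ligand of some gamma-delta T cell receptors, had 539, 469 and 483 in the controls and 1028, 485 and 1070 in the Kir2.1 mice (log2FC 0.71 ± 0.29 SE, adjusted p = 0.426). Without Kir2.1 mouse 2, H2-T22 and H2-T23 were the 2 members with an adjusted p under 0.05, at 0.0366 and 0.0119, on a spread that the 2 remaining Kir2.1 mice shared with the 3 controls. H2-Q4 had 457, 332 and 507 in the controls and 597, 500 and 818 in the Kir2.1 mice, with Kir2.1 mouse 2 within the range of the controls (adjusted p = 0.413).

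The high values of Kir2.1 mice 1 and 3 were counted over the members after they were seen. Of the 29 members, 11 had their 2 highest values in these 2 mice, beside 6.98% of all genes tested. They were B2m, Tap1, Tap2, H2-K1, H2-D1, H2-M3, H2-Q4, H2-Q7, H2-T22, H2-T23 and H2-T24. None was a class II gene.

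The interferon-response and class I regulator genes had the same mice high. Of a list of 20 such genes, all 20 were above 0 in log2FC, beside 51.2% of all genes tested. At an unadjusted p under 0.05, 14 were higher, beside 4.93% of all genes, and 0 had an adjusted p under 0.05. The median log2FC of the list was 1.32. Of the 20, 18 had their 2 highest values in Kir2.1 mice 1 and 3, beside 6.98% of all genes. Nlrc5, the class I transactivator, had 54.0, 22.05 and 67.1 normalized counts in the controls and 218, 79.5 and 463 in the Kir2.1 mice, groups that did not overlap (log2FC 2.19 ± 0.67 SE, adjusted p = 0.289). Irf9, a subunit of the interferon-activated factor ISGF3, had 1509, 1118 and 1417 in the controls and 2327, 1616 and 2718 in the Kir2.1 mice. Gbp3, an interferon-induced GTPase, had 94.0, 49.9 and 80.0 in the controls and 379, 211 and 761 in the Kir2.1 mice (adjusted p = 0.107, the smallest of the list). Oas1a, Irgm1 and Gbp2 were the others of the list whose groups did not overlap. Kir2.1 mouse 2 was the lowest Kir2.1 mouse for Nlrc5, Irf9 and Gbp3, as it was for the class I chains.

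Of 11 genes of class I peptide supply and loading, 0 passed the adjusted test. The groups of 3 did not overlap, with the Kir2.1 mice higher, beside 7.26% of all genes. The same 3 had an unadjusted p under 0.05, beside 4.93% of all genes higher at that level. They were the proteasome genes Psmb8, Psmb10 and Psme1. Psmb8, a subunit of the immunoproteasome, had 223, 195 and 221 normalized counts in the controls and 413, 270 and 501 in the Kir2.1 mice (log2FC 0.84 ± 0.22 SE, adjusted p = 0.222). The chaperones Calr and Canx overlapped between the groups, with log2FCs of 0.09 and 0.04. Of 9 genes with an MHC-like fold outside the complex, 7 were above 0 in log2FC, beside 51.2% of all genes. Mr1, which presents small metabolites, was the 1 of these 9 whose groups did not overlap, at 670 to 904 in the controls and 922 to 1198 in the Kir2.1 mice (adjusted p = 0.433).

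**Figure D1:**
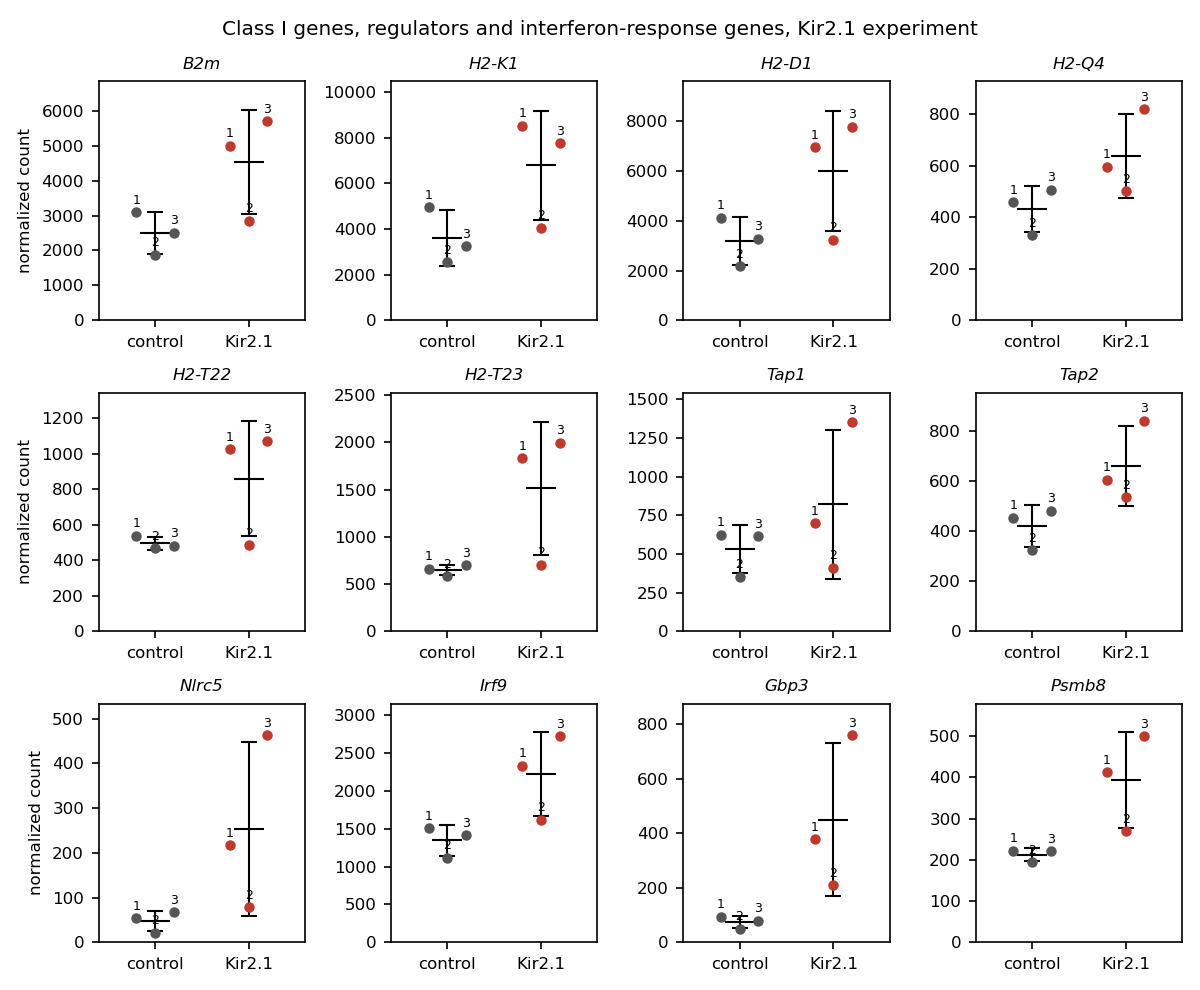
Normalized count (linear axis from 0) of 8 class I genes and partners and of Nlrc5, Irf9, Gbp3 and Psmb8 in the 3 control and 3 Kir2.1 mice, 1 point per mouse labelled with its number, with mean and SD as bars. Kir2.1 mice 1 and 3 were above all controls in all 12 panels, and Kir2.1 mouse 2 was the lowest Kir2.1 mouse in each.

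Counts of cell type markers moved beside these values. The 8 OSN genes all had lower values with Kir2.1, each with an unadjusted p under 0.05, beside 6.2% of all genes lower at that level. Of the 8, 1 (Omp) had an adjusted p under 0.05. The sums of the 8 genes, 90613 to 103082 in the Kir2.1 mice, lay below the 123471 to 137994 of the controls. In whole tissue, fewer cells of a type and less RNA per cell cannot be told apart. Of 18 antigen-presenting and blood cell markers, 10 were tested, and all 10 were above 0 in log2FC, beside 51.2% of all genes. Ptprc (CD45, the pan-leukocyte antigen) had 69.5 to 92.1 normalized counts in the controls and 104 to 152 in the Kir2.1 mice (adjusted p = 0.265), and Itgam and Itgax did not overlap either. The summed markers of this list were at 1269 to 2259 in the controls and 1949 to 2176 in the Kir2.1 mice, which overlapped. All 4 endothelial markers were above 0 in log2FC. The groups of 2 of them did not overlap, with the Kir2.1 mice higher, beside 7.26% of all genes. Kdr was at 162 to 208 in the controls and 216 to 312 in the Kir2.1 mice, and Tek at 72.9 to 99.7 and 101 to 156 (adjusted p = 0.483 and 0.381). All 3 horizontal basal cell genes and all 3 respiratory ciliated cell genes were above 0 in log2FC as well. Of 4 immature neuron genes 2 were above 0, and of 4 sustentacular cell genes 0. Every gene of these last lists overlapped between the groups. The T cell marker Cd3e was at 1.93 to 5.44 in every mouse, below the filter. The part of these cell types in the class I values was not tested.

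The class II genes did not share the pattern. Of the 9 class II members tested, 5 were above 0 and 4 below 0 in log2FC, and the groups of 8 overlapped. Cd74 had 574, 325 and 257 normalized counts in the controls and 346, 768 and 387 in the Kir2.1 mice (log2FC 0.37 ± 0.38 SE, adjusted p = 0.808). Its highest value was in Kir2.1 mouse 2, the mouse with the lowest class I values of its group. H2-Aa, the A alpha chain, had 149, 84.8 and 56.5 in the controls and 108, 219 and 80.3 in the Kir2.1 mice (adjusted p = 0.797). Kir2.1 mouse 2 was highest, control mouse 1 next and control mouse 3 lowest, as for Cd74. H2-Ab1, the A beta chain, had 272, 159 and 189 against 219, 250 and 202, and H2-Eb1, the E beta chain, 143, 55.5 and 54.0 against 96.8, 102 and 95.5 (adjusted p = 0.871 and 0.800).

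H2-DMb2, a beta chain of the peptide exchange factor H2-DM, was the 1 class II member whose groups did not overlap. It had 378, 325 and 335 normalized counts in the controls and 223, 230 and 292 in the Kir2.1 mice, with a log2FC of -0.48 ± 0.14 (SE, adjusted p = 0.271). Its neighbour H2-DMb1, which shared 26.8% of its 40-base windows with H2-DMb2, had 145 to 179 in the controls and 178 to 182 in the Kir2.1 mice. The 2 genes together had 557, 470 and 502 against 401, 412 and 473, which overlapped. H2-DMa, their alpha chain partner, overlapped as well, with a log2FC of -0.09 ± 0.13 (SE, adjusted p = 0.879). Ciita, the class II transactivator, was at 34.1 to 90.1 in the controls and 44.6 to 76.2 in the Kir2.1 mice, and of the 10 genes of the class II pathway list 0 had an unadjusted p under 0.05.

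A second pattern divided the mice of the Kir2.1 experiment across the group labels, and was counted after it was seen. H2-Ea, the E alpha chain, had 0, 25.3 and 14.4 normalized counts in control mice 1 to 3 and 0, 40.9 and 0 in Kir2.1 mice 1 to 3. It was therefore above 0 in control mice 2 and 3 and Kir2.1 mouse 2, and listed at 0 in control mouse 1 and Kir2.1 mice 1 and 3. H2-Q1 had 0, 32.8 and 34.9 in the controls and 0, 36.2 and 0 in the Kir2.1 mice, in the same 3 mice. H2-Bl had 4.72, 66.1 and 82.5 against 6.71, 102 and 6.46, and H2-K2 had 7.07, 33.3 and 58.2 against 5.57, 65.5 and 12.3. H2-T-ps was the fifth member of this kind, with 4.02, 12.8 and 31.2 against 4.86, 18.8 and 9.18.

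In all, 5 of 29 members had their 3 highest values in those 3 mice, beside 3.72% of all genes tested, and 0 of the 20 interferon-response genes did. The mean of each of these 5 members over the other mice lay below the filter. All 5 therefore passed the filter only through those 3 mice, and their count depends on the filter too. Of the 5, H2-Ea and H2-Bl are annotated as polymorphic pseudogenes, and H2-K2 and H2-T-ps as pseudogenes. All of H2-Ea's 40-base windows were its own, so that no other annotated gene holds these letters. Kir2.1 mice 1 and 3, which had the high class I values, and control mouse 1, which had the highest H2-K1, H2-D1 and B2m of the controls, were the 3 mice in which H2-Ea was listed at 0. The H2 haplotype of these mice is not given in the sources used here, and its part in the class I values was not tested.

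**Figure D2:**
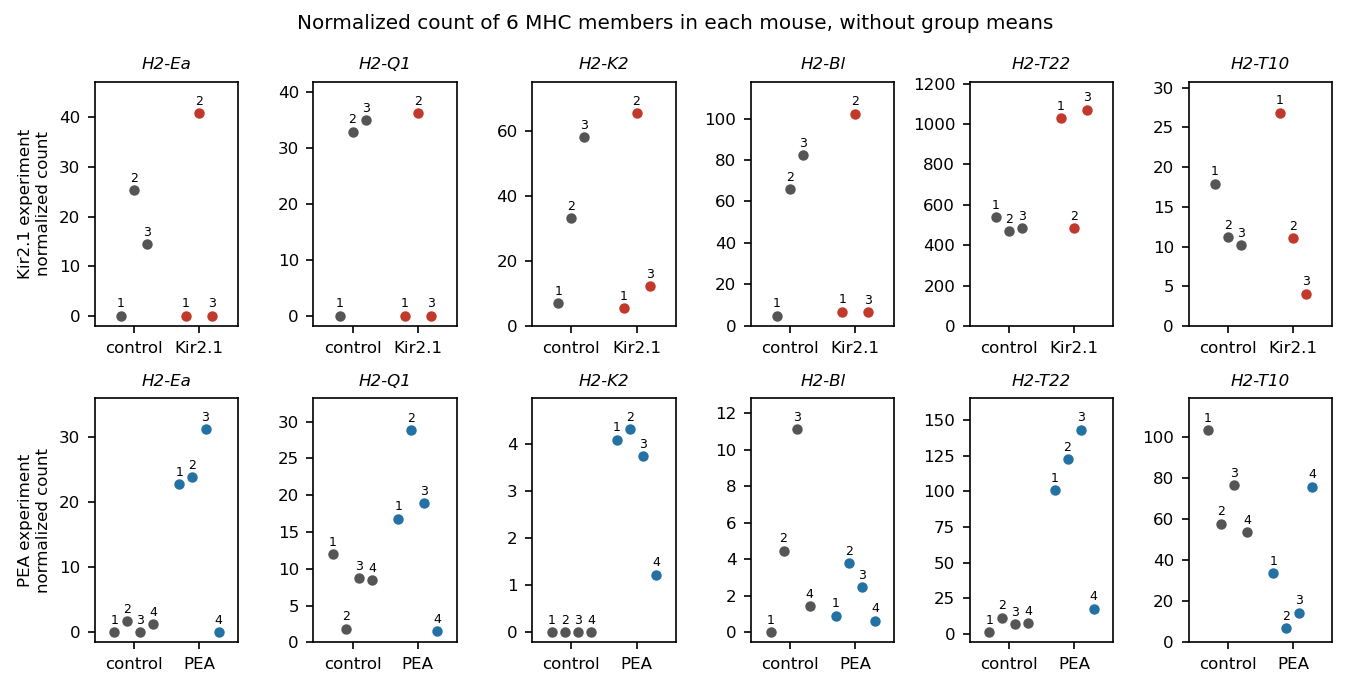
Normalized count (linear axes, which differ between panels) of H2-Ea, H2-Q1, H2-K2, H2-Bl, H2-T22 and H2-T10 in each mouse, as 1 point per mouse with its number, for the Kir2.1 experiment (3 against 3 mice, upper row) and the PEA experiment (4 against 4 mice, lower row). In the upper row H2-Ea and H2-Q1 were above 0 in control mice 2 and 3 and Kir2.1 mouse 2, and in the lower row H2-Ea stood at 22.7 to 31.1 in exposed mice 1 to 3 and at 0 in exposed mouse 4.

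H2-K1 was the 1 member that passed the test in the PEA experiment. The comparison asks how exposure to an odor in the first days after birth bears on the same tissue. Of 17322 genes tested, 31 had an adjusted p under 0.05, which is 0.179%, while 25 of those, or 0.144%, were higher and the others, 0.0346%, lower after exposure. An unadjusted p under 0.05 was found for 12 of the 25 members, beside 15% of all genes, of which 10 were higher, beside 8.93% of all genes, and 2 were lower, beside 6.04%. The groups of 6 members did not overlap with the exposed mice higher, beside 5.46% of all genes, and those of 0 tested members with the exposed mice lower, beside 3.86%. Among the higher members, H2-Ea, H2-T22 and H2-T-ps had control means of 0.73, 6.70 and 9.77, and passed the filter only through the exposed mice. Among the lower, H2-Q6 had an exposed mean of 5.55 and passed it only through the controls. The log2FC was above 0 for 17 members, beside 46.5% of all genes, and its median was 0.14 over the members and -0.02 over all genes tested.

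H2-K1 had 299, 264, 206 and 442 normalized counts in the 4 controls, given in the order of their numbers, and 810, 897, 949 and 599 after exposure. All exposed mice were above all controls, and exposed mouse 4 and control mouse 4 lay nearest to each other. The means were 303 ± 100 and 814 ± 154 (SD, n = 4 each), a 2.69-fold difference, and the log2FC was 1.46 ± 0.22 (SE, adjusted p = 0.0371, limma). The direction held under all 19 alternatives tried, but the adjusted p was under 0.05 in 8 of them, with a range from 0.00664 to 0.155. It was 0.0705 to 0.143 when any 1 of control mice 1 to 3 or exposed mice 1 to 3 was left out, 0.152 with the replicate number as a block and 0.155 with vomeronasal receptor level as a covariate. H2-D1, the other classical chain, had 760, 517, 700 and 526 in the controls and 689, 862, 810 and 934 in the exposed mice. Its groups overlapped through exposed mouse 1, with a log2FC of 0.41 ± 0.15 (SE, adjusted p = 0.256).

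The class I partners overlapped. B2m had 1189, 803, 1032 and 765 normalized counts in the controls and 977, 887, 1024 and 854 in the exposed mice, with a log2FC of 0.00 ± 0.15 (SE, adjusted p = 0.998). Tap1 had 97.2, 37.3, 53.6 and 50.8 in the controls and 69.1, 53.0, 65.8 and 53.2 in the exposed mice (log2FC 0.09 ± 0.27 SE, adjusted p = 0.908). Tap2 had 16.6, 9.64, 22.4 and 62.4 against 36.0, 19.7, 44.9 and 83.6 (log2FC 0.85 ± 0.56 SE, adjusted p = 0.505). The exposed range of B2m lay inside the range of the controls.

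The interferon list, too, overlapped for most of its genes. Of 19 genes tested, 10 were above 0 in log2FC, beside 46.5% of all genes, and 0 had an adjusted p under 0.05. The 2 with an unadjusted p under 0.05 were lower in the exposed mice, beside 6.04% of all genes. Gbp2 was the 1 gene of this list whose groups did not overlap, at 54.3 to 73.2 in the controls and 28.0 to 40.7 in the exposed mice (adjusted p = 0.131). Nlrc5 was at 8.68 to 25.0 in the controls and 6.06 to 40.5 in the exposed mice. Of the 11 peptide supply and loading genes, 0 had an unadjusted p under 0.05. Among the antigen-presenting and blood cell markers, 7 of 18 were tested and 0 had an unadjusted p under 0.05, with sums of 514 to 808 in the controls and 492 to 668 in the exposed mice.

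The horizontal basal cell genes Krt5, Krt14 and Trp63 summed to 698 to 845 in the controls and 922 to 1103 in the exposed mice, which did not overlap. Krt14 was at 151 to 220 against 268 to 317 (adjusted p = 0.108), while Krt5 and Trp63 overlapped, with log2FCs of 0.63 and 0.003. Foxj1, a gene of ciliated cells, was at 375 to 484 against 552 to 653 (adjusted p = 0.104). The other ciliated cell genes of its list, Tekt1 and Ccdc39, overlapped, with log2FCs of -0.16 and -0.13. The sums of that list overlapped as well. Of the 8 OSN genes, Omp did not overlap with the exposed mice higher, at 6087 to 7326 against 7510 to 10082 (adjusted p = 0.252), and Cnga2 with the exposed mice lower, while the sums of the list overlapped. Cyp1a2, of the sustentacular cell list, did not overlap either, with the exposed mice higher (adjusted p = 0.286). The other genes of that list overlapped, as did its sums. None of these marker genes had an adjusted p under 0.05, and their part in the values of the members was not tested.

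H2-T22 had the largest difference of the members. It had 1.097, 11.4, 6.64 and 7.65 normalized counts in the controls and 101, 123, 143 and 17.6 in the exposed mice. The groups did not overlap. Exposed mice 1 to 3 were far above the controls, while exposed mouse 4 was above them but nearer to them than to the other exposed mice. The log2FC, on the log2(normalized count + 1) scale, was 3.57 ± 0.71 (SE, adjusted p = 0.0853), and without exposed mouse 4 it was 4.24 (adjusted p = 0.0260). H2-T10, the gene that shares most windows with it, went the other way. It had 103, 57.8, 76.6 and 53.5 in the controls and 33.8, 6.89, 14.4 and 75.7 in the exposed mice (log2FC -1.58 ± 0.59 SE, adjusted p = 0.260). Exposed mouse 4 was within the range of the controls for H2-T10, and the groups overlapped.

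Summed, H2-T10 and H2-T22 had 104, 69.2, 83.2 and 61.2 normalized counts in the controls and 135, 129, 158 and 93.4 in the exposed mice. The 2 genes shared 0.384% of the H2-T22 windows at 150 bases. H2-T10 was at 4.07 to 26.8 in all 6 mice of the Kir2.1 experiment, where H2-T22 was at 469 or more. H2-T10 is a polymorphic pseudogene in the reference annotation.

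Exposed mice 1 to 3 shared further high values, a pattern counted after it was seen. H2-Ea had 0, 1.72, 0 and 1.20 normalized counts in the controls and 22.7, 23.8, 31.1 and 0 in the exposed mice (adjusted p = 0.251). H2-Q1 had 11.98, 1.88, 8.71 and 8.43 in the controls and 16.8, 28.8, 19.0 and 1.52 in the exposed mice. Of the 25 members, 6 had their 3 highest values in exposed mice 1 to 3 (H2-K1, H2-T22, H2-Ea, H2-Q1, H2-Q4 and H2-DMb1), beside 3.01% of all genes tested. H2-Q6 and H2-T10 had their 3 lowest values there, beside 2.61% of all genes. H2-Ea, H2-Q1 and H2-T22, with control means of 0.73, 7.75 and 6.70, passed the filter only through the exposed mice, and H2-Q6 only through the controls. Both counts therefore depend on the filter too. H2-K2, below the filter, was listed at 0 in all 4 controls and at 4.10, 4.32, 3.75 and 1.23 in the exposed mice. H2-Q2, below the filter as well, had 10.56 to 24.2 in the controls and 4.21, 0, 0 and 5.56 in the exposed mice. The H2 haplotype and litter of the mice of the PEA experiment are not given. Their part in the values of H2-K1, H2-T22 and the other members was not tested.

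Of the other class I genes, H2-T23 had 60.1, 46.9, 70.9 and 57.7 normalized counts in the controls and 79.1, 115, 156 and 116 in the exposed mice. Its groups did not overlap, exposed mouse 4 included (log2FC 0.95 ± 0.22 SE, adjusted p = 0.116). H2-Q4 had 45.1, 39.96, 56.8 and 47.8 against 77.6, 78.7, 74.5 and 58.1 (adjusted p = 0.183). The pseudogene H2-T-ps had 8.71, 8.74, 12.9 and 8.73 against 15.3, 22.2, 30.9 and 32.4 (adjusted p = 0.138). H2-Q6 had 46.3, 10.14, 13.4 and 7.26 against 6.90, 1.78, 5.59 and 7.94, with 1 control mouse far above the others (log2FC -1.40 ± 0.61 SE, adjusted p = 0.318). The same mouse, control 1, had 78.8 for H2-Q5, which was at 1.06 or less in the other 7 mice.

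The class II genes had no adjusted p under 0.05. Of the 8 tested, 4 had higher values in the exposed mice at an unadjusted p under 0.05, beside 8.93% of all genes. They were H2-DMa, H2-DMb1, H2-DMb2 and H2-Ea. Of these 4, H2-DMa was the 1 whose groups did not overlap. H2-Ea, with means of 0.73 in the controls and 19.4 in the exposed mice, passed the filter only through the exposed mice. H2-DMa had 17.5, 22.8, 22.4 and 20.5 normalized counts in the controls and 34.6, 37.3, 56.8 and 44.1 in the exposed mice. Its groups did not overlap, and the means of 20.8 ± 2.40 and 43.2 ± 9.89 (SD, n = 4 each) gave a log2FC of 1.00 ± 0.23 (SE, adjusted p = 0.116). H2-DMb1 had 19.1, 10.23, 23.3 and 8.68 against 31.6, 43.5, 35.9 and 21.98 (log2FC 1.13 ± 0.36 SE, adjusted p = 0.202). H2-DMb2 had 46.8, 111, 72.6 and 131 against 150, 128, 119 and 172 (log2FC 0.74 ± 0.29 SE, adjusted p = 0.283). The sum of both beta chains was at 65.9 to 140 in the controls and 155 to 194 in the exposed mice, which did not overlap.

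Of the surface chains and Cd74, all of which overlapped, H2-Aa was at 50.9 to 91.3 in the controls and 63.3 to 83.1 in the exposed mice (adjusted p = 0.790). H2-Ab1 was at 24.5 to 42.9 in the controls and 15.7 to 38.9 in the exposed mice (log2FC -0.52 ± 0.32 SE, adjusted p = 0.477). H2-Eb1 was at 9.32 to 42.9 against 0 to 33.3 (adjusted p = 0.610), with exposed mouse 4 listed at 0. Cd74 was at 47.5 to 115 against 52.4 to 86.4 (log2FC -0.01 ± 0.29 SE, adjusted p = 0.994). Rfxank, a subunit of the RFX factor that binds class II promoters, was the 1 gene of the class II pathway list whose groups did not overlap, at 55.9 to 77.6 in the controls and 78.3 to 157 in the exposed mice (adjusted p = 0.280). Of the MHC-like genes outside the complex, 7 were tested, and the groups of 2 did not overlap. Ulbp1, a ligand of the receptor NKG2D, was lower in the exposed mice, at 118 to 276 in the controls and 45.4 to 78.1 in the exposed mice (log2FC -1.68 ± 0.26 SE, adjusted p = 0.0371, limma). Azgp1, a secreted protein with an MHC-like fold, was at 24.3 to 51.2 in the controls and 85.7 to 103 in the exposed mice (log2FC 1.24 ± 0.24 SE, adjusted p = 0.0814).

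**Figure D3:**
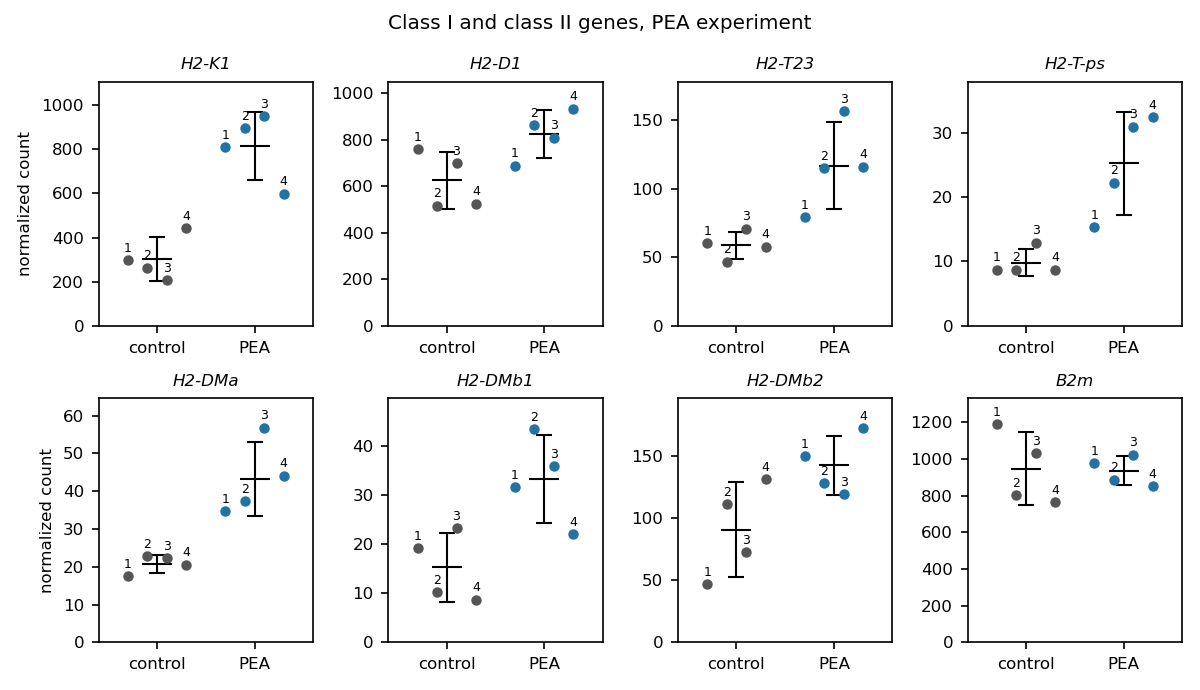
Normalized count (linear axis from 0) of 8 members in the 4 control and 4 PEA-exposed mice, 1 point per mouse labelled with its number, with mean and SD as bars. The groups of H2-K1, H2-T23, H2-T-ps and H2-DMa did not overlap, those of H2-D1, H2-DMb1, H2-DMb2 and B2m did, and of these 8 only H2-K1 had an adjusted p under 0.05.

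**Figure D4:**
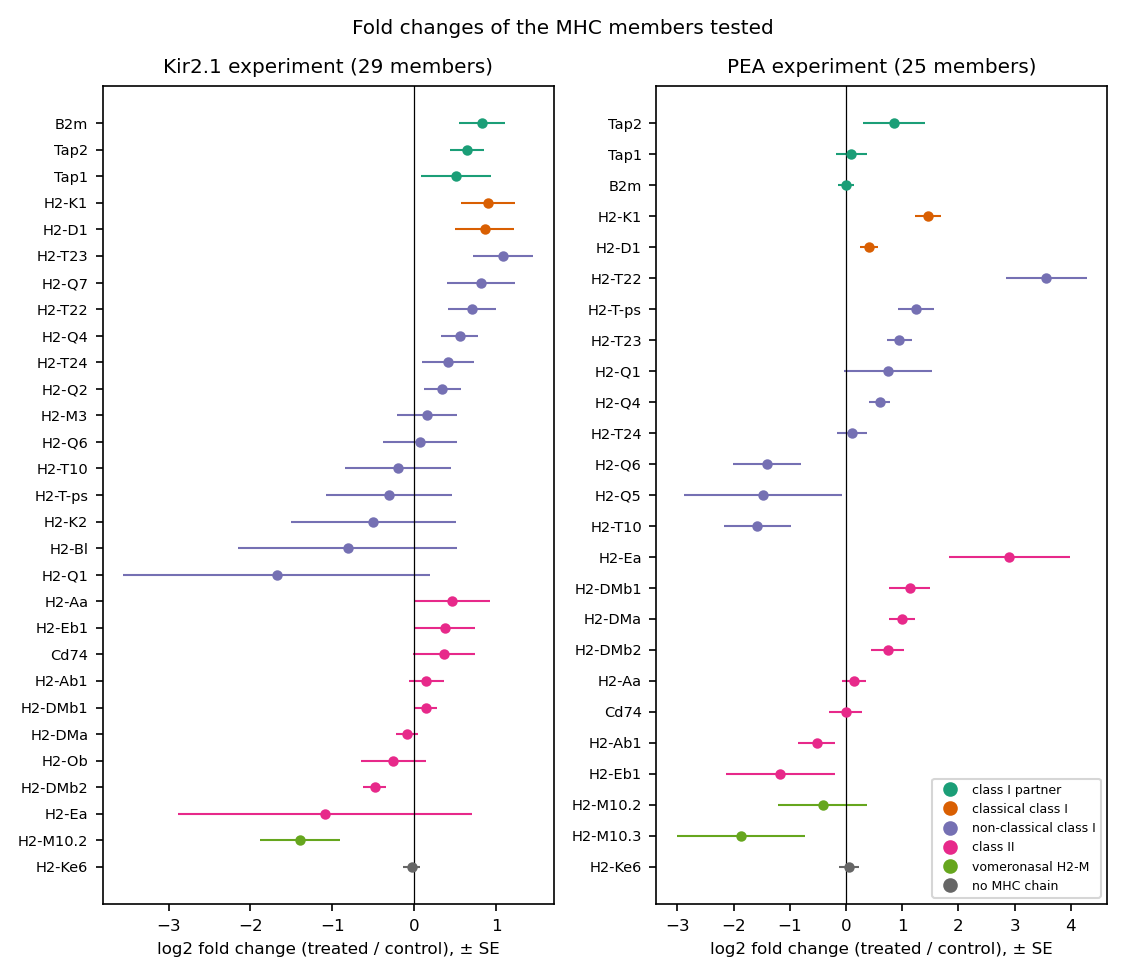
Log2 fold change with its SE of the 29 members tested in the Kir2.1 experiment (Kir2.1 over control, left) and the 25 tested in the PEA experiment (exposed over control, right), on the log2(normalized count + 1) scale, ordered by role. B2m stood at 0.82 on the left and 0.00 on the right, and the widest SEs belong to members listed at 0 in some mice, such as H2-Q1 and H2-Ea.

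Set side by side, the 2 experiments differed in which members were high, though the difference between them was not tested, since libraries, read lengths and normalization differ. B2m stood at a log2FC of 0.82 in the Kir2.1 experiment and 0.00 in the PEA experiment, while H2-K1 stood at 0.90 and 1.46, H2-T23 at 1.08 and 0.95, and H2-DMb2 at -0.48 and 0.74. H2-Ke6, which encodes an enzyme of fatty acid synthesis and steroid metabolism, was at -0.03 and 0.06.

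The H2-M genes of vomeronasal neurons were low in most mice and high in a few. Of these 10 genes 1 passed the filter in the Kir2.1 experiment (H2-M10.2) and 2 in the PEA experiment (H2-M10.2 and H2-M10.3). In the Kir2.1 experiment their sum was 107 normalized counts in control mouse 1, 15.6 and 16.4 in the other controls, and 7.80, 8.16 and 7.32 in the Kir2.1 mice. In the PEA experiment it was 168, 49.5, 27.4 and 5.18 in the controls and 71.9, 9.02, 8.83 and 4.25 in the exposed mice. The V2R receptor genes (Vmn2r), summed, were at 7330 in control mouse 1 of the Kir2.1 experiment and 1065 to 1354 in the other 5 mice. In the PEA experiment they were at 7084, 3235, 1851 and 335 in the controls and 5265, 390, 349 and 329 in the exposed mice. Within each experiment, the mouse with the highest H2-M sum had the highest Vmn2r sum.

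H2-M10.2 had 22.8, 12.6 and 11.8 normalized counts in the Kir2.1 controls and 5.77, 7.18 and 3.08 in the Kir2.1 mice, which did not overlap (log2FC -1.40 ± 0.49 SE, adjusted p = 0.346). It passed the filter there only through the controls. After PEA exposure and in its controls the values overlapped, at 45.8, 11.7, 2.45 and 4.40 in the controls and 17.3, 5.14, 5.90 and 3.53 in the exposed mice. H2-M10.3 had 28.5, 0.954 and 2.97 in the Kir2.1 controls and 0, 0 and 3.08 in the Kir2.1 mice, and 50.9, 23.2, 8.66 and 0.780 against 19.2, 1.95, 1.04 and 0 in the PEA experiment. H2-M10.1 and H2-M1 reached 20.7 and 15.3 in PEA control mouse 1, and H2-M10.5 and H2-M10.6 reached 9.95 and 14.7 there. Control mouse 1 of the Kir2.1 experiment had the highest value of every vomeronasal H2-M gene that was above 0 in any mouse. Trpc2, of the vomeronasal neuron list, was at 283 to 528 in the Kir2.1 controls and 145 to 225 in the Kir2.1 mice. These groups did not overlap (adjusted p = 0.173, limma). In the PEA experiment Trpc2 overlapped, at 23.2 to 61.6 in the controls and 26.5 to 55.2 in the exposed mice. Vomeronasal tissue in the dissection was not measured other than through RNA, and its part in these values was not tested.

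**Figure D5:**
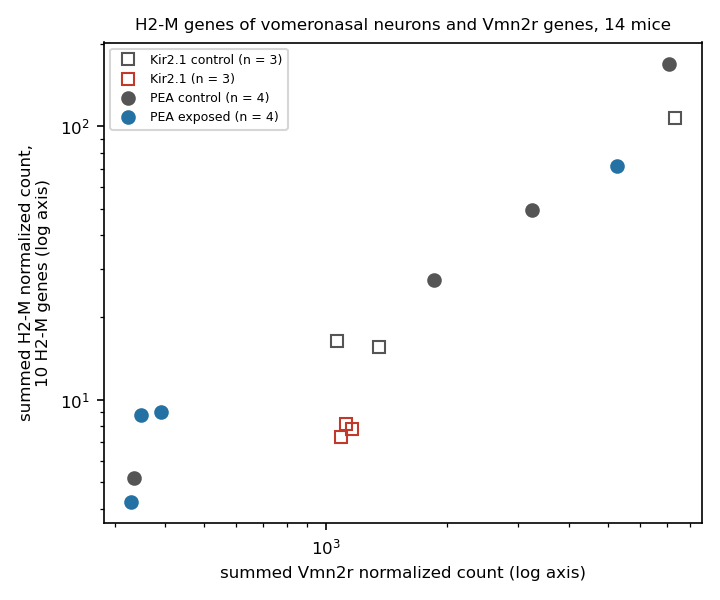
Summed normalized count of the 10 vomeronasal H2-M genes (vertical, log axis) against that of the Vmn2r genes (horizontal, log axis), 1 point for each of the 14 mice, open squares for the Kir2.1 experiment and filled circles for the PEA experiment. Control mouse 1 of each experiment and exposed mouse 1 stand at the upper right, with H2-M sums of 107, 168 and 71.9.

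The remaining members were low or overlapped between the groups. H2-Q6 was at 32.8 to 125 in the Kir2.1 controls and 59.7 to 79.8 in the Kir2.1 mice, and H2-Q2 at 43.9 to 67.7 against 62.8 to 77.7. H2-Q10, below the filter, was at 4.13 to 5.58 in the controls and 9.89 to 13.6 in the Kir2.1 mice, which did not overlap, and at 0.566 to 4.34 against 1.47 to 5.78 in the PEA experiment. H2-M3, which presents N-formylated peptides, was at 24.2 to 38.4 against 20.5 to 43.4 in the Kir2.1 experiment and under the filter in the PEA experiment. H2-Ob, a chain of the H2-DM inhibitor H2-O, was at 20.3 to 51.1 against 20.5 to 32.5, and its partner H2-Oa was at 5.33 or less in every mouse of both experiments. H2-T24 overlapped between the groups in both experiments. H2-M2, H2-M5, H2-T3 and H2-Eb2 were under the filter in both.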

How the data were processed

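Bulk RNA-seq was done on olfactory epithelia of 14 mice at P5, and groups were taken from the sample labels. Per the paper's methods, the Kir2.1 experiment used unstranded poly-A libraries with 40 bp single-end reads, and the PEA experiment stranded, rRNA-depleted libraries with 150 bp single-end reads. The authors quantified reads with Salmon 1.3.0 against Ensembl release 100 with a reverse-stranded setting, summed them per gene and normalized them with DESeq2 1.30.0. The deposited values are thus a normalized signal per gene (called normalized counts here), not reads: 4.21 to 14.2% of values above 0 were whole multiples (within 0.01) of the commonest low value, so no count test was run. Depth is therefore approximate: the summed values in units of that low value came to 32513158 to 35397330 per mouse in the Kir2.1 experiment and 9764663 to 15074997 in the PEA experiment. Whether the stranded setting dropped part of the unstranded Kir2.1 reads was not tested. The processing notes also name mm10.

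Genes that averaged 10 or more normalized counts within an experiment were tested with limma 3.58.1 (R 4.3.3) on log2(value + 1), with a mean-variance trend, each experiment alone, and p-values were adjusted by Benjamini-Hochberg over all genes tested. The threshold was an adjusted p of 0.05. The script was tested on simulated data. Each p-value judges the difference between 2 groups against the spread between mice within a group. PEA was given through a vial in the home cage, and the cages and litters of the mice are not given. Exposure therefore cannot be told apart from differences between cages or litters. Alternatives were other pseudocounts (0.5 and 5), filters (none, mean of 50), moderations and scalings, a replicate block, covariates for vomeronasal receptor genes or Xist, and leaving out each mouse. Whether mice with the same replicate number deviated together was checked, and they did not do so throughout.

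Members, gene lists and tests were chosen with earlier results of these data known. Per-mouse values are given for the accessory genes, the classical chains, members with an adjusted p under 0.05, up to 12 per experiment with an unadjusted p under 0.05 or groups that did not overlap, vomeronasal H2-M genes of at least 10 in any mouse, and H2-Ea. Other members named with per-mouse values (H2-Q1, H2-Bl, H2-K2, H2-Q2 and H2-Q5), and the patterns of mice, were chosen after their values were seen. Of the listed genes outside the membership, those named were mostly genes whose groups did not overlap, and the rest were given as counts. Coordinates, exon lengths (all annotated exons merged) and windows came from GENCODE vM21 (GRCm38), promoters from RefSeq (GRCm38.p6), and H2-Ea was matched through its synonym.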

Additional observations from a re-analysis of the deposited data

Results flagged for a closer look

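Of 50 groups of 4 mice examined (the 25 named members in the 2 groups of the PEA experiment), 6 held 1 mouse far from the other 3 by Dixon's criterion. Independent, normally distributed values meet it in about 1 in 20 groups. That rate does not hold here, since many values were near 0 and some genes were high in the same mouse. In 4 of the 6, exposed mouse 1 was the high mouse and the gene was an H2-M gene of vomeronasal neurons. H2-M1 was at 7.15 normalized counts there against 0.896 or less in the other exposed mice, H2-M10.1 at 12.5 against 0, H2-M10.3 at 19.2 against 1.95 or less, and H2-M10.5 at 6.78 against 0. The same mouse had 5265 summed Vmn2r counts, against 329 to 390 in the other exposed mice. H2-Q6 was at 46.3 in control mouse 1 and at 7.26 to 13.4 in the other controls. H2-T-ps was at 12.9 in control mouse 3 and at 8.71 to 8.74 in the other controls.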

How the results depend on the processing

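Depth limits the H2-M, H2-Q and H2-T genes with few reads, and 3 or 4 mice a group leave wide errors. No member was called in the Kir2.1 experiment under the main settings, and leaving out each mouse gave 0 to 2 (2 without Kir2.1 mouse 2). In the PEA experiment 1 was called under the main settings, 0 with no trend, with median centring, with the replicate block, with the vomeronasal covariate and with the Xist covariate, and 0 to 2 when mice were left out (H2-K1 and H2-T22 without exposed mouse 4, H2-K1 without control mouse 4, and none without any 1 of the other 6). The adjusted p of H2-K1 was 0.0988 with no trend, 0.0520 with median centring, 0.152 with the replicate block, 0.155 with the vomeronasal covariate and 0.0760 with the Xist covariate, its log2 fold change staying between 1.29 and 1.66 under all 19 alternatives. The cause was not tested.

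The replicate block, which pairs mice only by number (correlations of -0.06, -0.01 and 0.16 for numbers 1 to 3 in the Kir2.1 experiment, and 0.13, -0.02, -0.05 and 0.10 for numbers 1 to 4 in the PEA experiment), moved the genes called in the Kir2.1 experiment from 70 to 9. Other counts there were 20 with no trend, 22 with the vomeronasal covariate, 44 with the Xist covariate and 23 to 44 without 1 mouse. In the PEA experiment 31 became 52 with no filter, 20 with the vomeronasal covariate and 19 to 43 without 1 mouse. Of the named members tested, 16 of 20 in the Kir2.1 experiment and 17 of 21 in the PEA experiment kept their direction throughout.

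Those that did not had log2 fold changes near 0 or few counts. In the Kir2.1 experiment, the vomeronasal covariate turned H2-Q6 to -0.43 and H2-T10 to 0.0470, and leaving out mice gave -0.42 to 0.53 for H2-Q6, -0.81 to 0.42 for H2-T10, -0.0245 to 0.36 for H2-Ab1 and -0.998 to 0.12 for H2-T-ps. In the PEA experiment, median centring turned B2m to -0.0480, the vomeronasal covariate turned Cd74 to 0.21 and H2-M10.2 to 0.38, and the Xist covariate turned Cd74 to 0.0878. Leaving out mice there gave -0.0933 to 0.12 for B2m, -0.17 to 0.25 for Cd74 and -0.10 to 0.35 for Tap1.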
